A study of Mus musculus with 18 samples.

Results

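Of 53796 regions of accessible chromatin measured in mouse macrophages, 2817 were well opened on average across conditions and changed little between them. They are called invariant here. They were chosen on the measured values: the mean over 9 treatment groups was at least 4.5 log2 CPM (the reads of a region scaled to the library's size, on a log2 scale; 4.5 is 22.6 CPM), and the highest group mean exceeded the lowest by less than 0.4, a 1.32-fold difference. The difference between the highest and the lowest group mean is called the range of a region. Levels and ranges of the members are therefore a description and carry no test. Well-opened regions numbered 13510. The comparison set was the 1867 of them with a range of at least 1 (2-fold), called responding, and 8826 lay between the 2 sets.

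The assay was ATAC-seq, which reads accessible DNA from the places where a transposase can insert adapters, on macrophages grown from the bone marrow of wildtype C57BL/6 mice aged 6 to 12 weeks. The cells were grown with M-CSF (20 ng/mL), replated on day 7, given a first treatment for 4 h and, in fresh medium, a second for 4 h. Treatments were medium (M), CpG DNA (C, 100 nM), which is sensed by an endosomal Toll-like receptor, LPS of bacterial cell walls (L, 1 ng/mL), polyI:C, a mimic of viral double-stranded RNA (P, 1 µg/mL), and the cytokine TNF (T, 10 ng/mL). Groups are written by first and second treatment, 2 libraries to a group: medium came first in MM, MC, ML, MP and MT, CpG in CL and CT, and polyI:C in PL and PT. All groups share strain, genotype and culture. Nothing in the labels says that replicates came from different animals or cultures, so the spread between libraries may be technical. A chi-square test found no difference beyond counting noise between the reads of the MP libraries (1.00 per region, p = 0.285). They are therefore taken as 1 sample, which leaves their group mean, and so the rule, as it is, and the calls of the limma fit, which held them as 2, are also given with them as 1. In the other groups this value ran from 1.07 in ML to 2.71 in PT, whose 2 libraries stood furthest apart. Without PT, 4653 regions met the rule, and without MP 3306. Leaving out any group can only lower a region's range or leave it as it is. Libraries held between 3141641 and 5986835 reads in regions, and the median member held 135 to 253 reads. Of 8 macrophage marker genes all had a region and 7 a well-opened one (Mertk reached 3.84). Among markers of other cell types, Camp of neutrophils (5.17), Flt3 of dendritic cells (5.10) and Cdh5 of endothelium (5.53) each had a well-opened region. None of the T, B or erythroid markers did. Their part in the results was not tested.

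A promoter is the stretch of DNA around a gene's start where RNA polymerase is loaded. Promoters of housekeeping genes, whose products every cell needs, usually lie in CpG islands, stretches rich in G and C in which the dinucleotide CG has not been depleted, and they are typically kept free of nucleosomes in all tissues. Enhancers, which lie inside or between genes, bind cell-specific and signal-driven factors such as PU.1, NF-kB, AP-1 and interferon-regulated factors in macrophages. The opening of an enhancer can change with stimulation.

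Sequences upstream of some starts at which regions were invariant or responding are shown first. They were chosen as examples and do not stand for their sets, whose composition is given below. Each is the 150 bases before a gene's start, 5′ to 3′ in the direction of the gene, from RefSeq on GRCm38.p6, the build of the deposited coordinates. Capitals mark matches, on either strand, to the searched motifs that are defined with their frequencies below. The 6 starts with an invariant region belong to Ireb2 (an RNA-binding regulator of iron genes, smallest range of all), Ndufv2 (a subunit of respiratory complex I), Cyld (a deubiquitinase that restrains NF-kB), Mpc2 (a mitochondrial pyruvate carrier subunit, highest level among the named), Gk (glycerol kinase) and Ifit2 (an antiviral interferon-induced gene).
Ireb2, chr9:54863605-54863754, plus strand: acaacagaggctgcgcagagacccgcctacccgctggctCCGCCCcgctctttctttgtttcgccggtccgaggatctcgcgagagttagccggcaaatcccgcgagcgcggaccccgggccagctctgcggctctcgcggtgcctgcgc
Ndufv2, chr17:66101560-66101709, minus strand: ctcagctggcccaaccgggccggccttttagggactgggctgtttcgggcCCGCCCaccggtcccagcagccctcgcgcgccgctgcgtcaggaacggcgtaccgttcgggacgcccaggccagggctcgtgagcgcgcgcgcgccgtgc
Cyld, chr8:88696878-88697027, plus strand: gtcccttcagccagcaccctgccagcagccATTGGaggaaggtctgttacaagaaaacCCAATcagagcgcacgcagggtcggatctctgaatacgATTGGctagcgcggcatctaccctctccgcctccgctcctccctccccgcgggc
Mpc2, chr1:165461110-165461259, plus strand: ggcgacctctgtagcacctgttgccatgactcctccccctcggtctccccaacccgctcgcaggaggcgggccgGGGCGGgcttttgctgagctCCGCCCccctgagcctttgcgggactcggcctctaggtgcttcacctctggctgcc
Gk, chrX:85776820-85776969, minus strand: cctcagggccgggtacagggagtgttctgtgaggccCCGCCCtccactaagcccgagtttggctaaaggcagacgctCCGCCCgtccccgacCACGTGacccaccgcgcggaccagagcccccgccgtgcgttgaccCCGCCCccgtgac
Ifit2, chr19:34550544-34550693, plus strand: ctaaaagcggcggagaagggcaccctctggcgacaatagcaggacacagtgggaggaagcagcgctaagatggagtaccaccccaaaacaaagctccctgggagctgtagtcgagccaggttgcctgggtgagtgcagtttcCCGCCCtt

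The 3 starts with a responding region belong to the cytokine gene Tnf, the chemokine gene Cxcl2, which attracts neutrophils, and Acod1, whose enzyme makes itaconate. Their regions had ranges of 1.95, 1.45 and 3.50.
Tnf, chr17:35202008-35202157, minus strand: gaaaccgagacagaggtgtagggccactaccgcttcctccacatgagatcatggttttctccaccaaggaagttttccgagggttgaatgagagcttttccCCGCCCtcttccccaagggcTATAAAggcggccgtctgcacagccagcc
Cxcl2, chr5:90903749-90903898, plus strand: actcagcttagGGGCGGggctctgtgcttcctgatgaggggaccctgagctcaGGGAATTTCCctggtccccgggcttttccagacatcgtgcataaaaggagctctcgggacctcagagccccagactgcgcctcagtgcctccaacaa
Acod1, chr14:103046862-103047011, plus strand: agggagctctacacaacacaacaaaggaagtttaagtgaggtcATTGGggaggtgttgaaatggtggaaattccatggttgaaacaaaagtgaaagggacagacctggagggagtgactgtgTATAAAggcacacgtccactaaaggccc

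In these 150 bases Ireb2 held 20 CG dinucleotides, Ndufv2 22, Gk 16, Cyld and Mpc2 10 each and Ifit2 6. Tnf held 6, Cxcl2 5 and Acod1 1. Ifit2 thus had the fewest of the 6 invariant starts, as many as Tnf. Matches to TATAAA lay 29 bases before the Tnf start and 28 before that of Acod1 and in none of the 6 invariant examples. The NF-kB motif was matched only at Cxcl2 among the 9, as the run of 10 capitals. A match describes letters and shows no bound factor. The examples exaggerate the contrast between the sets. Over 300 bases the ratio of observed to expected CG was 0.436 at Tnf, 0.399 at Cxcl2 and 0.121 at Acod1. The median over responding promoters was 0.677.

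Invariant regions lay mainly at gene starts. Of the 2817, 1909 (67.8%, exact 95% binomial interval 66.0 to 69.5) were at most 1 kb from an end of a protein-coding gene, against 338 of the 1867 responding regions (18.1%, 16.4 to 19.9), 45.5% of the well-opened regions between and 24.9% of all regions. Responding regions of any level, 19613 in number, lay there in 10.4% of cases. The intervals cover counting error only, and no test of the difference was run. Without PT the shares were 68.9% of invariant and 16.8% of responding regions. Without PT replicate 1 alone, so that replicate 2 stood for PT, they were 67.0% and 29.3%. Without PT replicate 2 alone they were 69.98% and 16.0%. The responding share thus depended on which PT library was kept.

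The gene end in question was the start for 1558 invariant regions, the 3′ end for 19, and for 332 the gene had no start in the reference table used. In responding regions these numbers were 245, 30 and 63. The centre of an invariant region at a start lay a median of 49 bases before it, and 51.9% of invariant regions had a start within 250 bases, against 9.75% of responding ones. A start on each strand, as at divergently transcribed gene pairs, was within reach of 258 invariant regions (9.16%) and 14 responding ones (0.75%). Only 17273 of 21627 protein-coding genes had a start in the reference table, so these shares at starts are lower bounds in both sets. Members further than 1 kb from a gene end lay inside a gene (550, 19.5%), between genes (283, 10.0%) or over 50 kb from any gene (75, 2.66%). For responding regions the corresponding shares were 46.7%, 25.6% and 9.59%.

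**Figure D1:**
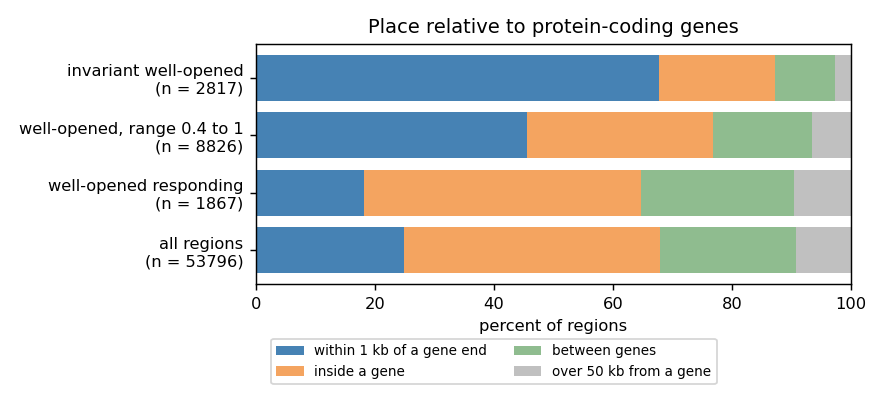
Horizontal bars give the percent of regions in each class of place relative to protein-coding genes, for invariant, intermediate, responding and all regions. The segment within 1 kb of a gene end takes 67.8% of the invariant and 18.1% of the responding bar, and the segment inside genes 19.5% and 46.7%.

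Shares near noncoding RNA genes are given with no test. Within 500 bases of a tRNA gene lay 21 invariant regions (0.745%) and 1 responding region (0.0536%). So did 57 of the well-opened regions between (0.646%), a share close to the invariant one, and 207 of all regions (0.385%). Genes for small nuclear RNAs, most of which act in splicing, had 1 invariant region (0.0355%) and 18 responding ones (0.964%) nearby, against 89 of all regions (0.165%) and 0.245% of responding regions of any level. Near a long noncoding RNA gene lay 302 invariant regions (10.7%) and 82 responding ones (4.39%). The share was 8.50% of the well-opened regions between and 5.36% of all regions. Counting only those away from the ends of protein-coding genes left 78 invariant (2.77%) and 55 responding regions (2.95%), against 3.07% of all, so away from such ends the 2 shares were close.

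Members were more open than responding regions of the same well-opened class. Their mean level had a median of 5.40 and reached 7.57, against 4.89 and 7.02 for the responding set, and their median range was 0.32 against 1.23. Within classes of like level, places still differed. Among regions with a mean of 4.5 to 5, 20.6% of those within 1 kb of a gene end were invariant and 9.44% of those elsewhere, while 9.05% and 25.4% responded. Between 5.5 and 6 the invariant shares were 35.8% and 19.1% and the responding shares 2.53% and 13.8%. Above 6.5 they were 45.5% and 30.0%, and 0.802% and 4.00%. In every level class, regions at gene ends were more often invariant and less often responding than regions elsewhere, with no test of these differences.

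**Figure D2:**
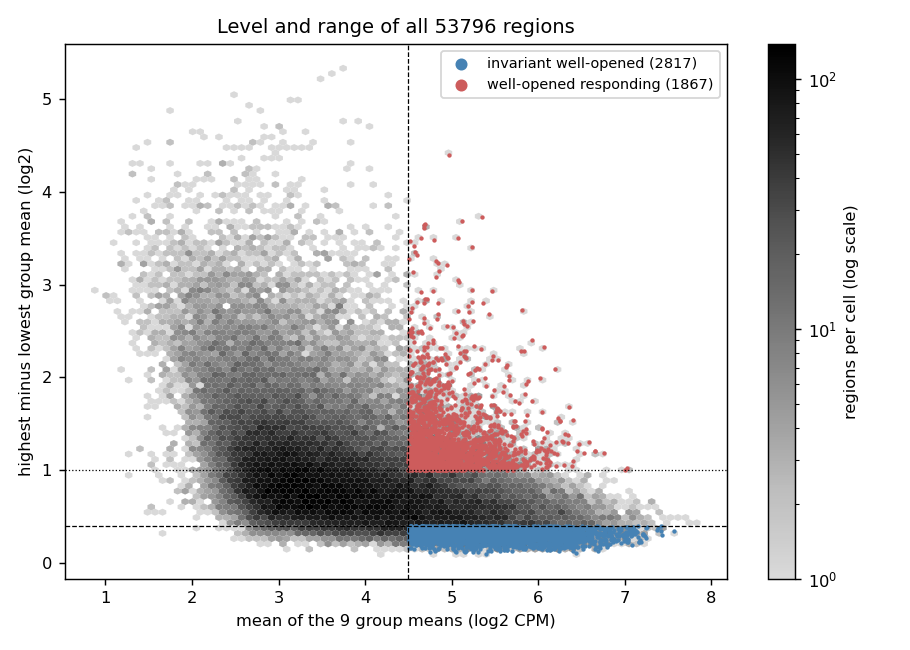
Each region's mean over the 9 groups (log2 CPM, x axis) is plotted against its range (log2, y axis), with all 53796 regions as grey cells shaded by their number on a log scale, the 2817 invariant regions in blue and the 1867 responding ones in red. Dashed lines mark 4.5 and 0.4 and the dotted line 1, and the most variable regions lie at low levels.

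**Figure D3:**
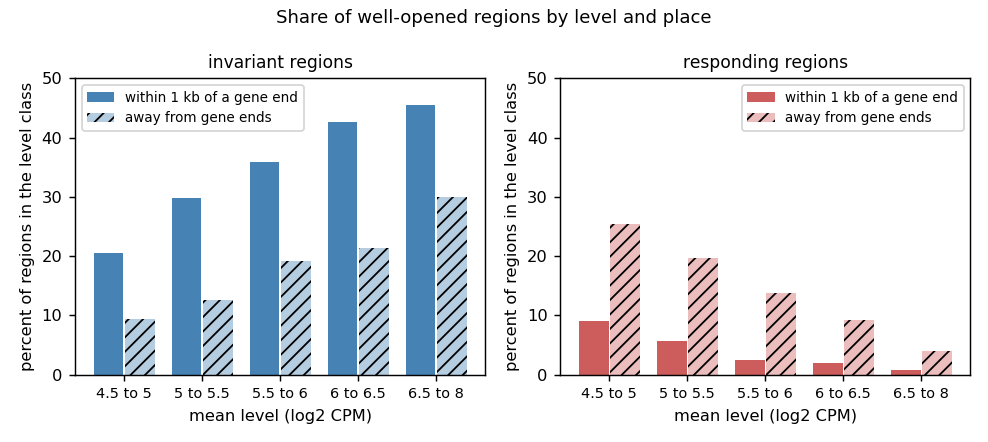
Bars give the percent of regions in each level class that were invariant (left) or responding (right), within 1 kb of a gene end (solid) or elsewhere (hatched). The invariant share at gene ends climbs from 20.6% to 45.5% with level, and the responding share stays below that of regions elsewhere in all 5 classes.

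The most constant region covered the start of Ireb2 (chr9:54863486-54863987), whose upstream sequence stands above. Its log2 CPM was 5.5 and 5.37 in MM, 5.31 and 5.44 in MC, 5.20 and 5.51 in ML, 5.44 and 5.39 in MP, 5.51 and 5.33 in MT, 5.49 and 5.40 in CL, 5.39 and 5.32 in PL, 5.25 and 5.53 in CT and 5.47 and 5.37 in PT. The 9 group means lay within 0.094 of each other around 5.40, while the 2 libraries of several groups, such as ML and CT, lay further apart than that. The 5 next smallest ranges belonged to Txnrd3, a thioredoxin reductase gene (chr6:89644171-89644672; range 0.11, mean 6.44), Parl, a mitochondrial protease gene (chr16:20302106-20302607; 0.12 and 4.75), Mnat1, which encodes a subunit of the CDK-activating kinase (chr12:73201549-73202050, inside the gene; 0.12 and 5.15), Fam120a (chr13:48878468-48878969; 0.12 and 5.05) and Adal, an adenosine deaminase-like gene (chr2:121140159-121140660; 0.12 and 5.25). All but Mnat1 of these 6 were within 1 kb of a gene end.

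Among named genes the highest level was at Mpc2 (chr1:165460823-165461324), with 7.44 and 7.38 in MM, 7.46 and 7.39 in MC, 7.28 and 7.35 in ML, 7.46 and 7.54 in MP, 7.37 and 7.50 in MT, 7.38 and 7.21 in CL, 7.47 and 7.54 in PL, 7.41 and 7.36 in CT and 7.58 and 7.62 in PT. All 18 values lay between 7.21 and 7.62, the lowest in CL and the highest in PT. Pcmtd1 (chr1:7088571-7089072), classed as inside a gene, followed at 7.42 (range 0.40), then the start of the protein phosphatase gene Ppm1b (chr17:84957436-84957937) at 7.42 (0.35) and, outside genes, a region nearest to Zfp958, a zinc finger gene (chr8:4677641-4678142), at 7.38 (0.38). Papss1, which makes the sulfate donor PAPS (chr3:131564492-131564993), had 7.37 (0.35), and Kctd9 (chr14:67715738-67716239) 7.25 (0.39). In each of these 6 regions CL was the lowest group. The limma F test given below as background called all 6 (adjusted p from 0.00049 to 0.027), with the MP libraries as 2 samples. It called 69.7% of all regions and 8.555% of members. Invariant thus means a range below 0.4 and not a lack of any difference between groups. The most open members away from any gene, over 50 kb from the nearest, were not assigned: chr15:85634447-85634948 had a mean of 6.60 and a range of 0.22, chr10:87696432-87696933 6.30 and 0.28, and chr7:73618376-73618877 6.14 and 0.31.

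Members at the edges of the rule differed little from their neighbours across it. Atox1 (chr11:55461079-55461580), a copper chaperone gene, had the largest range inside, 0.399961, and Apobec1 (chr6:122602162-122602663), an RNA-editing deaminase gene, the smallest outside, 0.400019. On the level threshold, Abcb6 (chr1:75180198-75180699) had the lowest mean inside, 4.50167, and Sumf2 (chr5:129846693-129847194) the highest outside among named genes, 4.49978.

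Promoters behind invariant regions were richer in CG than those behind responding ones. RefSeq's 300-base promoters (250 bases before to 50 after the start) were available for 1592 members and 200 responding regions, counted 1 per region. The G and C content had a median of 63% in the invariant set, 58.8% in the responding set and 56% over all 19430 promoters. The ratio of observed to expected CG dinucleotides had medians of 0.843, 0.677 and 0.530, and of 0.813 at well-opened regions between. With at least 50% G and C and a ratio of at least 0.6 as a mark of a CpG island, 86.4% of invariant, 54.5% of responding and 42.6% of all promoters were island-like, as were 80.2% of those at well-opened regions between. Read the other way, 33.8% of well-opened island-like starts were invariant and 2.68% responding, against 22.9% and 9.63% of other well-opened starts.

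Each motif was searched on both strands as exact letters in the 300 bases. GGGCGG, the core of SP1 sites, was in 74.6% of invariant, 62.0% of responding and 44.9% of all promoters. CCGGAAG of ETS factors was in 24.0%, 9.5% and 10.4%, and the CCAAT box, CCAAT, in 47.4%, 45% and 38.5%. The E-box CACGTG was in 12.4%, 8.5% and 7.65%, and the CRE TGACGTCA in 4.52%, 4.5% and 2.15%. The NRF1 palindrome was in 37 invariant promoters (2.32%), 0 of 200 responding and 1.19% of all, and the YY1 motif in 2.2%, 1.5% and 0.81%. Other motifs showed the reverse order. TATAAA was in 4.52% of invariant and 14.5% of responding promoters (all, 13.3%), AP-1's TGACTCA in 3.08% and 8.5% (4.88%), the interferon response element (ISRE) in 0.38% and 4.5% (0.72%), and the NF-kB motif in 1 of 1592 (0.063%) and 4 of 200 (2.0%; 0.11%). GAGGAAGT of PU.1, the factor of the macrophage lineage, was in 2.83% and 5.0% (3.16%). The SP1, ETS, E-box, CRE, NRF1 and YY1 motifs contain a CG dinucleotide and the others do not, and matches of different motifs may overlap. Promoters at well-opened regions between held most of these motifs in shares close to the invariant ones, with SP1 in 72.4%, ETS in 22.3%, the CCAAT box in 45.3%, TATAAA in 5.25% and AP-1 in 3.17%. NRF1 was in more of them (2.83%), and CRE (3.33%) and YY1 (1.58%) in fewer. The shares are descriptions with no test, and nothing particular to invariant regions is read from them.

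Genes were compared by the region at their start. Where a gene had several regions at its start, the most open was used. Of 5126 protein-coding genes with a well-opened start region, 1632 (31.8%) had an invariant one and 208 (4.06%) a responding one. Gene lists were built from symbol families, so a list can hold kinases or paralogs beside the named machinery, and each share is to be read against those 2 percentages.

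Lists for gene expression itself came first. Of 36 genes for ribosomal proteins with a well-opened start, 14 were invariant and 0 responding, with Rps21 (chr2:180257022-180257523) at a mean of 6.64 and a range of 0.37 and Rpl37 (chr15:5116317-5116818) at 6.5 and 0.29. Ribosomal proteins have many near-identical pseudogenes, and how multimapping reads were treated is not given in the sources used here. Among 44 splicing factors 21 were invariant and 1, Snrpb2, responding. Hnrnpc (chr14:52104153-52104654), an RNA-binding protein gene, had 6.82 and 0.33, and Hnrnpf (chr6:117906502-117907003) 6.29 and 0.18. RNA polymerase II, its general factors and Mediator had 11 of 35 invariant and 0 responding, such as Med19 (chr2:84678083-84678584; 6.54 and 0.24) and Polr2b, the second largest polymerase subunit gene (chr5:77309888-77310389; 6.22 and 0.26). Translation factors had 14 of 37 and 1 (Eef2k), and tRNA synthetases 6 of 18 and 0. In the nuclear pore list 9 of 13 starts were invariant, among them Nup54 (chr5:92434954-92435455; 6.5 and 0.32), and Nup214 responded.

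Protein quality control and mitochondria showed shares from 25.0% to 48.0%. Chaperonin and heat shock genes had 17 of 39 invariant starts and 0 responding, including Tcp1 of the chaperonin ring (chr17:12915993-12916494) at 6.60 and 0.25. Near Hspa8 (chr9:40800918-40801419), which encodes the constitutive HSC70, a member had 6.87 and 0.23. Ubiquitin-conjugating enzymes and cullins had 12 of 25 invariant and 1 responding, the interferon-induced Ube2l6. The invariant Ube2n (chr10:95514785-95515286; 6.49 and 0.30) makes the K63-linked chains used in Toll-like receptor signalling. Proteasome subunits had 5 of 20 and 0, the mitochondrial ribosome 12 of 29 and 0, and the respiratory chain with ATP synthase 13 of 44 and 2 (Ndufs8 and Ndufv1). Ndufv2 (chr17:66101393-66101894), of the same complex I, had lowest, median and highest library values of 6.20, 6.33 and 6.54. Proton pump subunits of the V-ATPase, which acidifies lysosomes, had 5 of 6 invariant and 0 responding.

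Next came genes of chromatin and DNA maintenance. DNA replication and repair had 13 of 29 invariant starts and 1 responding, Pold4, and its most open member was the mismatch repair gene Msh3 (chr13:92354784-92355285) at 6.94 and 0.29. Among 9 genes of chromatin architecture, Ctcf, Smc3, Smc6, Wapl and Yy1 were invariant and 0 responded. The largest family, C2H2 zinc finger genes named Zfp, had 52 of 154 invariant starts (33.8%) and 2 responding (1.30%), the invariant share being near that of all genes.

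In each of the 6 immune and macrophage lists the invariant share was below the 31.8% of all genes, from 0% to 15.4%, with few genes to a list and no test. The lists were chosen with earlier results of these data known, so their shares are a description. None of the 8 inflammatory cytokine and effector genes with a well-opened start was invariant, and 7 responded: Acod1, Ccl3, Csf1, Cxcl10, Cxcl2, Il18 and Tnf. Interferon-stimulated genes had 9 of 25 responding starts and 2 invariant ones, Ifit2 and Trim25, a ubiquitin ligase of RIG-I signalling (chr11:88999191-88999692; mean 5.16, range 0.35). Of 20 NF-kB and feedback genes, 4 responded (Irak3, Nfkbia, Socs1 and Socs3) and 3 were invariant: the deubiquitinase genes Cyld and Otulin and the ubiquitin ligase gene Peli1 (chr11:21090883-21091384; 6.35 and 0.38). The Cyld region (chr8:88696677-88697178) had lowest, median and highest library values of 6.13, 6.33 and 6.46, and its group means differed by at most 0.19. The list of Toll-like and TNF receptors with their signalling genes had 2 of 17 in each class. The kinase genes Ripk1 (chr13:34002108-34002609; 6.22 and 0.32) and Map3k7, or TAK1 (chr4:31963713-31964214; 5.97 and 0.38), were invariant, and the receptor genes Nod1 and Tlr2 responded.

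Early-response and lineage factors had few members. AP-1 and immediate early genes had 2 of 13 invariant starts, Klf4 (chr4:55532467-55532968; 5.71 and 0.36) and Egr2 (chr10:67537539-67538040; 4.97 and 0.33), and 1 responding, Ier3. Macrophage identity genes had 1 of 10 invariant, Mitf (chr6:97806709-97807210; 5.60 and 0.21), a transcription factor of lysosomal and osteoclast genes, and 1 responding, Cebpa. Away from starts, members lay inside the scavenger receptor gene Cd36 (chr5:17879917-17880418; 5.81 and 0.30) and near Trem2, a lipid-sensing receptor gene (chr17:48355753-48356254; 5.51 and 0.18).

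**Figure D4:**
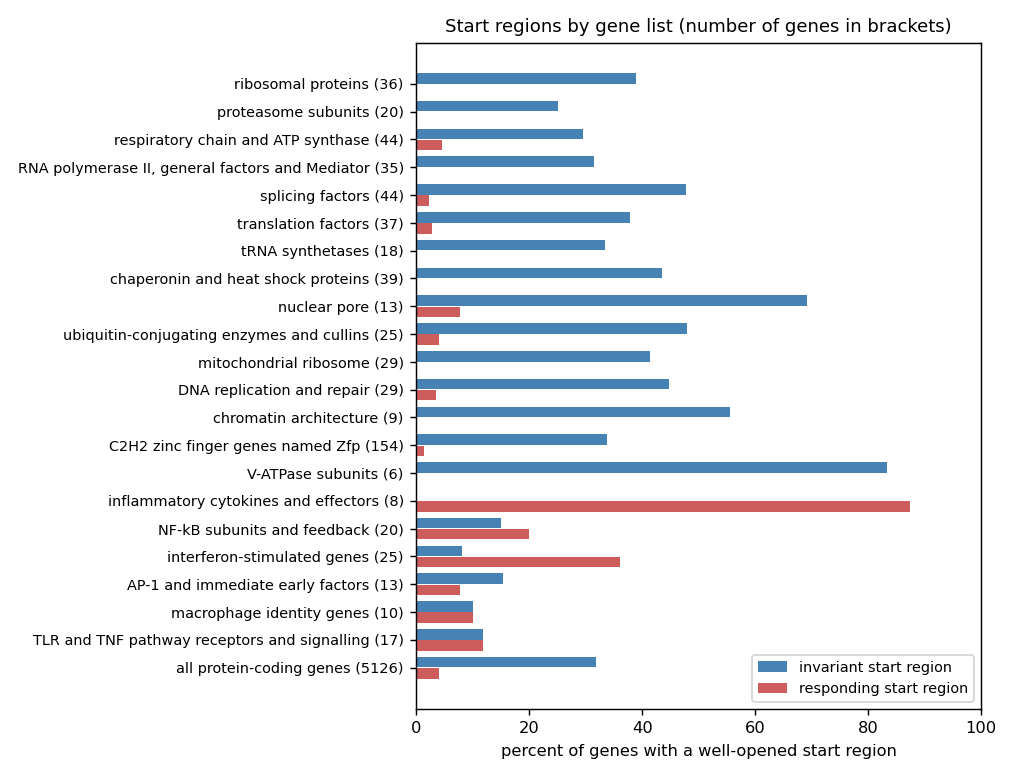
For each gene list, bars give the percent of genes with a well-opened start region (their number in brackets) whose start region was invariant (blue) or responding (red). All protein-coding genes, in the lowest row, stand at 31.8% and 4.06%, and inflammatory genes at 0% and 87.5%. The lists were chosen with earlier results of these data known.

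Genes with a constant start could still hold responding regions. Of 1628 genes with an invariant start, 711 (43.7%) had another assigned region, away from starts, with a range of at least 1 and 261 (16.0%) one of at least 2. These shares were 45.5% and 16.2% for the 8037 genes with any start region, so they were near the background. For the 240 genes with a well-opened responding start they were 67.1% and 29.2%. Fewer of the latter lacked another region, 20.8% against 33.0% with an invariant and 34.5% with any start region. Per other region, 39.9% had a range of at least 1 with an invariant start, 44.1% with any and 52.1% with a responding one. Genes were counted here by their assigned regions, without predicted genes and chromosome 18. No other region lay within 10 kb of 26.1% of members, 17.9% of responding regions, 24.1% of well-opened regions between and 28.6% of all. Within that distance 878 members (31.2%) had a region with a range of at least 1. That share was 58.2% in responding regions, 42.0% in well-opened regions between and 39.4% in all. Away from gene ends the shares of members and of all regions were close, 40.7% and 41.1%. Within 1 kb of a gene end they were 26.6% and 34.2%. Assignment is by nearness and does not show which gene a region acts on. The genes below were picked for the largest contrast, so their values are a description.

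Acod1 combined a constant region between genes (chr14:103033433-103033934), 13329 bases before its start, with responding ones at the start and beyond. The constant region had 6.48 and 6.51 in MM, 6.57 and 6.55 in MC, 6.40 and 6.5 in ML, 6.58 and 6.55 in MP, 6.5 and 6.34 in MT, 6.20 and 6.30 in CL, 6.29 and 6.40 in PL, 6.30 and 6.17 in CT and 6.33 and 6.45 in PT. The region with the largest range of all assigned to Acod1 (chr14:103056922-103057423), within 1 kb of a gene end and 10160 bases past the start, had 0.19 and 0.64 in MM, 4.5 and 4.05 in MC, 3.84 and 3.65 in ML, 5.04 and 4.63 in MP, 0.54 and 1.52 in MT, 5.33 and 5.28 in CL, 5.94 and 5.54 in PL, 4.16 and 3.90 in CT and 4.87 and 4.20 in PT. MM and MT were lowest there and CL and PL highest, and no library of MM or MT reached any of the other groups. Ranges were 0.33 and 5.33.

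Ifit2 showed the same with the constant region at the start (chr19:34550374-34550875). Its values were 4.60 and 4.81 in MM, 4.73 and 4.76 in MC, 4.40 and 4.52 in ML, 4.79 and 4.75 in MP, 4.57 and 4.64 in MT, 4.71 and 4.69 in CL, 4.70 and 4.75 in PL, 4.63 and 4.76 in CT and 4.77 and 4.52 in PT. The region between genes assigned to it (chr19:34577802-34578303) had 0.40 and -0.70 in MM, 2.68 and 2.39 in MC, 0.81 and 0.20 in ML, 4.54 and 4.47 in MP, -0.07 and -0.20 in MT, 3.13 and 2.59 in CL, 4.02 and 3.67 in PL, 1.70 and 1.58 in CT and 3.89 and 3.27 in PT. It was highest in MP, with PL and PT next, and lowest in MM and MT, where 1 MM library held 0 reads (-0.70). Log2 values of few reads are pulled together by the prior reads added before the logarithm, so these ranges are understated. In MP the responding region came close to the level of the constant one.

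Gk had the constant region over its start (chrX:85776568-85777069), with 6.17 and 6.10 in MM, 6.16 and 6.03 in MC, 6.17 and 6.02 in ML, 5.97 and 5.85 in MP, 6.06 and 6.01 in MT, 6.11 and 5.80 in CL, 5.99 and 5.96 in PL, 6.06 and 6.07 in CT and 5.93 and 6.08 in PT. Its counterpart between genes (chrX:85697922-85698423) had -0.05 and -0.70 in MM, 4.04 and 3.71 in MC, 2.93 and 2.39 in ML, 1.05 and 0.76 in MP, -0.35 and 0.69 in MT, 4.04 and 4.36 in CL, 3.81 and 3.94 in PL, 3.80 and 4.05 in CT and 0.69 and 1.73 in PT. All groups given CpG (MC, CL and CT), and PL, were high there, ML lay between, and MM, MT, MP and PT were low. Clec16a, a regulator of mitophagy, was constant at its start (chr16:10545022-10545523; lowest, median and highest library 4.74, 4.89 and 5.08), while a region inside the gene (chr16:10584806-10585307) ran from -0.26 to 4.77 and was highest in CL, followed by CT and MC. The carbohydrate kinase gene Fggy (chr4:95557204-95557705, at the start; range 0.21) and Trio, a guanine nucleotide exchange factor gene (chr15:27923929-27924430, inside; 0.36), held other regions with ranges of 4.93 and 4.58, highest in CL and in PL. These 6 responding regions had mean levels under 4.5 and so fell outside the well-opened class.

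**Figure D5:**
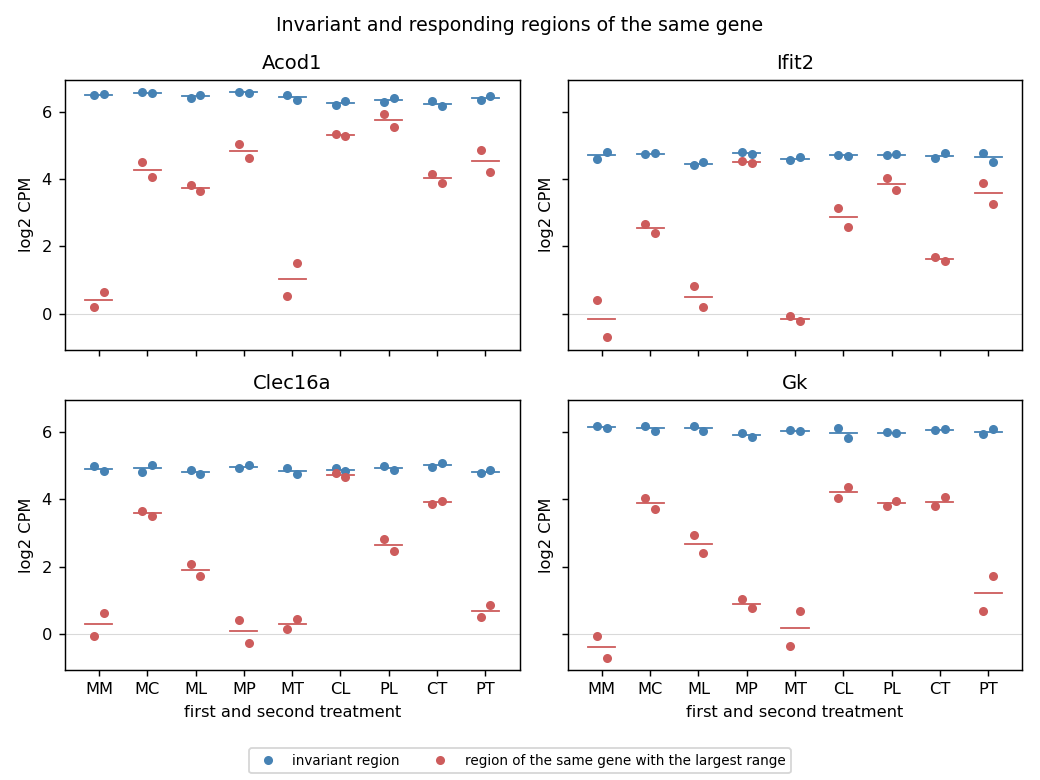
Log2 CPM (y axis) of each library (points; lines are group means) by group, written as first and second treatment, for the invariant region and the region of largest range assigned to Acod1, Ifit2, Clec16a and Gk. The invariant regions stay flat, with ranges from 0.20 to 0.33, and the others span 4.57 to 5.33.

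Some genes held several members. App, the amyloid precursor gene, had the most, 5 of its 25 regions, all inside the gene, with means of 5.85, 5.07, 5.22, 6.48 and 5.26. Another 5 of its regions had a range of at least 1, up to 2.72. Pfkfb3, a glycolysis regulator that is induced in activated macrophages, had 4 members among 15 regions, 2 of them at annotated starts, and 5 of the 15 had a range of at least 1, up to 3.91. Leaving out predicted genes and chromosome 18, 21 genes had 3 members, 195 had 2 and 2117 had 1. For comparison, the largest ranges among well-opened responding regions with a named gene were 4.40 between genes near Mrpl39 (chr16:84713025-84713526), 3.69 near Slc30a4 (chr2:122665460-122665961) and 3.65 inside Dock10 (chr1:80614687-80615188), each lowest in MM.

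By chromosome, members made up 15.0% of well-opened regions on chromosome 11 and 16.6% on chromosome 2, the lowest shares, and 35.6% on the X chromosome (72 of 202), the highest, shares given with no test. The next highest were 26.2% on chromosome 8 and 25.5% on chromosome 4. Responding regions were 17.9% on chromosome 11 and 2.97% on X (6 of 202). The invariant share was higher on the X chromosome than on the autosomes both at gene ends (40.8% against 30.3% invariant) and elsewhere (27.3% against 12.4%). Of well-opened regions, 2.97% on X and 14.0% on the autosomes had a range of at least 1. Over regions of any level these shares lay closer together, at 30.2% and 36.6%.

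Within the 0.4 allowed, members did not vary evenly across groups. PT was the highest group in 602 members (21.4%) and the lowest in 525 (18.6%), CL was lowest in 598 (21.2%) and PL in 441 (15.7%), and MM was highest in 490 (17.4%). The median difference from MM over members was -0.08 in both CL and PL and between -0.04 and 0.00 in the other 6 groups. In responding regions it was above 0 in all 8 groups, from 0.10 in PT to 0.37 in MC and ML, and over all regions it lay between -0.01 and 0.01. CPM is relative to the reads in all regions, and the part of that scaling in these small differences was not tested. The members held 13.2% to 14.2% of reads in regions.

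A limma F test over the 9 groups was used as background, since the rule used these same means. It called 69.7% of all regions at an adjusted p under 0.05 and 241 members (8.555%), and nothing is read from that count. With the MP libraries as 1 sample it called 63.7% of all regions and 130 members. By contrast with MM, members were called in CL 14 times higher and 183 times lower (all regions, 22.3% and 15.3%), in PL 22 and 186 times (23.7% and 17.4%), in PT 60 and 91 times (21.7% and 17.9%), and in MT 2 and 1 times (6.15% and 0.686%). In ML the counts were 27 and 51 (15.5% and 10.3%), in CT 12 and 58 (18.7% and 10.9%), in MP 36 and 34 (19.0% and 14.2%) and in MC 23 and 20 (17.7% and 9.23%). With the MP libraries as 1 sample the MP counts fell to 2 and 4 (14.3% and 8.28%), the lower count in ML to 29 (9.55%), the higher count in CL to 9 (21.9%) and that in MT to 1 (5.79%). The single lower call in MT was lost (0.573%). The other counts moved by less than 1.5 times, such as those in MC to 19 and 17 (17.2% and 8.79%). The comparisons share the MM libraries. The median SE of a difference was 0.13 in members and 0.20 over all regions.

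The spread between libraries of a group is given next. It measures noise, not constancy across treatments, and a rule on a small range favours regions with little noise. The difference between the 2 libraries of a group, averaged over the groups other than MP and PT, had a median of 0.12 in members, 0.15 in well-opened regions between and 0.16 in responding ones. At matched levels of 4.5 to 5 the medians were 0.15, 0.16 and 0.17, and at 6 to 6.5 they were 0.10, 0.12 and 0.12. PT stood apart, at 0.16 in members and 0.28 in both other sets. Constancy across treatments was also described by choosing on 1 library per group and reading the other. The 2 libraries of a group may be technical replicates, and those of MP are taken as 1 sample. The libraries read are thus not shown to be independent of those that chose, and the shares below are a description. The rule applied to the first libraries chose 2495 regions, whose range in the second libraries had a median of 0.50. Of them 755 (30.3%) met the rule again, against 10.7% of all well-opened regions, and 78 (3.13%) had a range of at least 1, against 24.6%. In the other direction 1474 regions were chosen, the median range read was 0.40, 755 (51.2%) met the rule again, against 18.3%, and 1 (0.0678%) had a range of at least 1, against 14.1%. Of 1902 responding regions chosen on the first libraries, 78.4% had a range of at least 1 in the second. Of 3241 chosen on the second, 45.4% had one in the first. With all other libraries kept, 2887 regions responded when PT replicate 2 alone stood for PT. With PT replicate 1 alone 1635 did, against 1867 with both. The part of PT in the difference between the 2 directions was not tested.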

How the data were processed

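Reads of 18 ATAC-seq libraries were processed by the authors on mm10 (GRCm38). Per the submitters' processing notes the tools were featureCounts, MACS3 3.0.0b1, Picard, SAMtools 1.9 and Bowtie2 2.2.5, without their settings. Whether read ends were shifted for the transposase and how multimapping reads were treated is not given in the sources used here. The deposited values are log2 CPM per region and library. All values (100%) returned whole reads within 0.01 once a prior in reads was assumed, so depth is known (median 4962629 reads in regions), and a value of -0.70 is 0 reads.

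Coordinates are as deposited, each region spanning 501 bases from start to end. Places, starts and 300-base promoters came from RefSeq tables for GRCm38.p6, with 21627 protein-coding genes, of which 17273 had a start. A region was assigned to the nearest protein-coding gene within 50 kb (48840 regions). Regions at a start had one within 1 kb of their centre. No genome sequence was used here, so no sequence is shown for members away from starts, and none for chromosome 18.

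The 9 group means were fitted with limma 3.58.1 (R 4.3.3) on the log2 values with a variance trend (9 residual and 29.09 prior degrees of freedom), with Benjamini-Hochberg adjustment over all regions at 0.05. The fit was also run on simulated data, where it missed most of the smallest changes. A member that was not called is therefore not shown to be constant. The labels do not say that replicate numbers mark a shared animal or day, so no block was used. The members, gene lists and motifs were chosen with earlier results of these data known. Named regions are those with the 6 highest means, the 6 smallest ranges, up to 3 per gene list and 3 per class of place with the highest means, the 2 on each side of each threshold, the genes with the most members, the 6 members whose gene holds the most variable other region, and the 3 most variable responding regions, with predicted genes and chromosome 18 skipped. The text names some of them, and lists of members at starts are given whole for immune lists. Alternatives changed thresholds, distances, scaling, the pseudocount, the variance model and the libraries used. Counting the MP libraries as 1 sample and voom on recovered reads were added after the data were seen.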

Additional observations from a re-analysis of the deposited data

How the results depend on the processing

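Thresholds and libraries moved the number of members more than their place. Against 2817 members, a range below 0.3 gave 1102, below 0.5 gave 4905, and a range below 0.8 over the 18 single libraries 6469. Without the PT group 4653 met the rule, without the MP group 3306, and without replicate 1 of every group 1474. Leaving out 1 library gave 2023 (without PT replicate 1) to 3818 (without PT replicate 2). The share of members within 1 kb of a gene end, 67.8%, was 64.4% at a mean of at least 4, 72.7% at a mean of at least 5, 74.4% with a range below 0.3, 63.2% below 0.5, 57.9% with the range over single libraries, 64.0% without the MP group and 70.9% without replicate 2 of every group. With 0.5 and 2 kb as the distance it was 64.6% and 71.9%, and over libraries left out it was 67.0% to 69.98%. The share of responding regions there, 18.1%, was 15.4% and 20.5% at means of at least 4 and 5, 23.9% with a range of at least 0.8, 14.6% and 23.2% at 0.5 and 2 kb, and 31.3% without replicate 1 of every group. Over libraries left out it was 16.0% to 29.3%, the highest without PT replicate 1. In each of these settings the invariant share was above the responding one. The cause of these moves was not tested. Quantile normalization, shifting libraries to one median and log2(CPM + 1) gave 3285, 2353 and 3113 members, with 68.5%, 68.9% and 66.9% at gene ends. Of 87 named regions inside the rule, 82, 66 and 87 had a range below 0.4 under these scalings.

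The count of 241 members called by the limma F test was 0 in limma with no variance trend, where 2 members had an unadjusted p under 0.05, and was 130 with the MP libraries as 1 sample, against 271 with voom. Over libraries left out it was 144 to 845, with 845 and 439 without PT replicates 1 and 2, 148 without CL replicate 1, 144 without ML replicate 1 and 148 and 150 without MP replicates 1 and 2. With the replicate number as a block it was 234. Replicate numbers did not mark a consistent pairing of the samples. Correlations of same-numbered libraries' deviations over 36 pairs of groups ran from -0.358 to 0.242, and 5 were over 0.1. Whether some groups share a batch was not tested.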
